A study of Mus musculus with 4 samples.

Results

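The genes described here are the ligand gene Amh (anti-Müllerian hormone), its type II receptor gene Amhr2, the type I receptor genes Acvr1, Bmpr1a and Bmpr1b, and the signal transducer genes Smad1, Smad5 and Smad9. They were taken by symbol from a count table of 22609 genes, and all 8 were present and passed the filter on low counts, as did 14788 genes in all. The table holds polyadenylated RNA from whole mouse testes on postnatal day 3, in 2 wild-type libraries and 2 libraries labelled as carrying a dominant-negative thyroid hormone receptor alpha 1, called mutant here. The mice were on a background that is mainly C57BL/6J and came from crosses of AmhCre mice with heterozygous carriers of the TRαAMI allele of Thra, and the series' title restricts the mutation to Sertoli cells, the somatic cells that enclose the germ cells in the testis cords. AmhCre is a line in which an Amh promoter drives Cre recombinase. The sources used here do not say whether wild-type mice carried Cre or whether each library was a separate animal. The p-values therefore measure only the spread among the libraries, which may be technical. Values are given per library, replicate 1 before replicate 2 in each group.

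Anti-Müllerian hormone is a secreted protein of the transforming growth factor beta family. Fetal and neonatal Sertoli cells make it in large amounts, and in the male fetus it removes the Müllerian ducts, from which the uterus and oviducts would form. The hormone binds AMHR2, a receptor that serves no other known ligand, which then pairs with a type I receptor kinase shared with the bone morphogenetic proteins. The type I kinase phosphorylates SMAD1, SMAD5 or SMAD9, which enter the nucleus with SMAD4. In the testis Amhr2 is known from Sertoli cells and from the steroid-producing Leydig cells. Thyroid hormone is known to hasten the maturation of Sertoli cells, which later shut down Amh.

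Of the 8 genes, Amhr2 alone passed the test, and it fell 1.72-fold in mutant testes. The hormone gene Amh was read at nearly the same mean level in both groups, with an interval from 0.814-fold to 1.19-fold. None of the 3 type I receptor genes and none of the 3 Smad genes was called by edgeR's quasi-likelihood test at an adjusted p below 0.05. At an unadjusted p below 0.05, Amhr2 and Acvr1 passed in that test, as did 3773 of all 14788 tested genes. The background was 5.67% of all tested genes called, 3.15% upward in the mutant libraries and 2.52% downward. Against it, the 8 genes gave 1 call downward and 0 upward, with a median log2 fold change of 0.057.

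**Figure D1:**
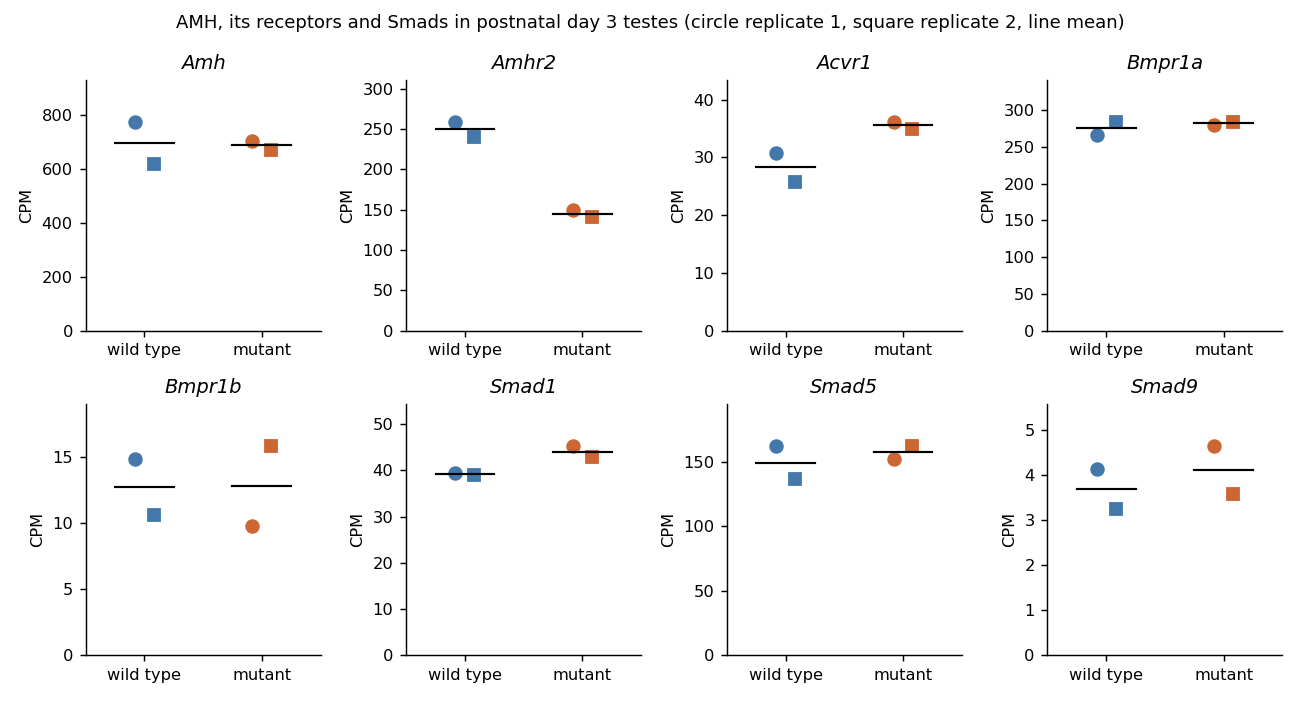
Counts scaled to library size, as counts in every 1000000 reads (CPM), of each gene in the 4 libraries, with wild type in blue and mutant in orange, circles for replicate 1, squares for replicate 2 and a line at each group mean; every axis starts at 0. The Amhr2 points of the mutant group, at 149 and 141 CPM, lie well under those of the wild-type group, at 259 and 240 CPM, while the Amh points of the groups overlap.

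The Amhr2 promoter is shown because Amhr2 is the gene that changed. The sequence is the 250 bases upstream of the transcription start in the RefSeq promoter table (build GRCm38.p6, chr15:102445117-102445366, plus strand). The same letters occur once on chromosome 15 of mm9, the build of the count table, at chr15:102275548-102275797, directly before the start of the gene. Capitals mark CCAAGGTCA, a motif bound by the nuclear receptor NR5A1 (SF-1), which is made in Sertoli and Leydig cells.
Amhr2 promoter: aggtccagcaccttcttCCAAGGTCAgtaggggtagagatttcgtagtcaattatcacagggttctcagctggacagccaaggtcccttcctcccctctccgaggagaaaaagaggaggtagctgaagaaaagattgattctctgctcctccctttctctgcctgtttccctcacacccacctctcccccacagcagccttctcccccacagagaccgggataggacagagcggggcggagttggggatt
The motif covers bases 233 to 225 upstream of the start. Searched on both strands, it occurs in 0.463% of the 32851 promoter windows of this length. Its last 6 letters, AGGTCA, are the half-site to which many nuclear receptors bind, the thyroid hormone receptors among them. AGGTCA was found only inside the capitals here and in 14% of all windows. The spaced repeat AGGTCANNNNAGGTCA, the classical arrangement for a thyroid hormone receptor, was not found in this window and occurs in 0.0152% of all windows. The window also holds GGGCGG, a GC box, at bases 17 to 12 upstream, as do 32.7% of windows, and GATAA, the core of GATA factor motifs, on the minus strand at bases 199 to 195 upstream, as do 22.6%. The letters ACAAT, the core of Sox motifs, were absent, against 27.7% of windows that hold them. A match of letters is a description and does not show a binding site. Of the 8 genes 7 have an entry in the promoter table, all but Amh, and among those 7 CCAAGGTCA was found for Amhr2 alone.

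Amh (chromosome 10, 80267993 to 80270393, plus strand, mm9) had 10344 and 6308 counts in the wild-type libraries and 7738 and 10519 counts in the mutant libraries. Scaled to library size, the wild-type pair held 777 and 618 CPM and the mutant pair 704 and 672 CPM. The highest and the lowest of the 4 values were both wild type, and both mutant values lay between them. The mean was 698 ± 112 CPM in the wild-type group and 688 ± 23.1 CPM in the mutant group (SD, n = 2). The log2 fold change, mutant minus wild type, was -0.021 ± 0.12 (standard error, SE), with a 95% interval from -0.30 to 0.25 and an adjusted p of 0.933 in edgeR's quasi-likelihood test. The value followed the wild-type libraries: it was 0.15 with wild-type replicate 1 left out and -0.18 with wild-type replicate 2 left out, and neither was called (adjusted p = 0.35 and 0.284). A change of Amh by more than about 1.23-fold downward lies outside the interval of the full fit.

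Amhr2 (chromosome 15, 102275798 to 102285061, plus strand, mm9) had 3450 and 2448 counts in the wild-type libraries and 1636 and 2204 counts in the mutant libraries. The wild-type pair thus held 259 and 240 CPM and the mutant pair 149 and 141 CPM. Both mutant libraries were lower than both wild-type libraries. Such a separation in either direction was seen in 57.3% of all tested genes, so that it carries little weight without its size. The mean was 250 ± 13.5 CPM in the wild-type group and 145 ± 5.78 CPM in the mutant group (SD, n = 2). The log2 fold change was -0.79 ± 0.09 (SE), with a 95% interval from -0.98 to -0.59 and an adjusted p of 0.00577 in edgeR's quasi-likelihood test. The replicates differed by 0.11 within the wild-type pair and by 0.081 within the mutant pair on the same log2 scale, both far smaller than the difference between groups. By p-value Amhr2 stood 34th among the 14788 genes, and 3.45% of the tested genes had a fall at least as large. The call held in each of the 14 other settings planned for the fit, with log2 fold changes from -0.84 to -0.73, and these include the fits that left out each library. The highest adjusted p of these, 0.0426, came without wild-type replicate 1.

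In whole testes, fewer cells of a type and less RNA per cell cannot be told apart. The summed level of the Sertoli cell markers was also lower in both mutant libraries, and that of the Leydig cell markers was not. The 28 Sertoli cell markers in the table other than Amh summed to 11841 and 13332 CPM in the wild-type pair and to 10512 and 10708 CPM in the mutant pair. Of the 29 Sertoli markers with Amh, 9 fell, 1 rose and 19 were not called, with a median log2 fold change of -0.26, against -0.0060 over all tested genes. Of all tested genes 2.52% fell and 3.15% rose. Cldn11, the claudin of the Sertoli tight junction, was at -1.22 ± 0.09 and Ptgds, a prostaglandin synthase, at 0.76 ± 0.09 (SE). The number of Sertoli markers that fell was 3 in the fit that omits wild-type replicate 1, 3 with wild-type replicate 2 left out and 5 with mutant replicate 1 left out, where 2 rose. Cldn11 was called in each of these fits, and Ptgds in all but the first (adjusted p = 0.0758). The 12 Leydig cell markers summed to 1746 and 1842 CPM in the wild-type pair and to 1907 and 1921 CPM in the mutant pair. Of 11 tested, 1 fell and none rose (median 0.0098). This was Vcam1, an adhesion molecule (log2 fold change -0.85 ± 0.14), whose adjusted p was 0.0708 and 0.0867 when wild-type replicate 1 or 2 was left out. DESeq2 called 2 Leydig markers lower and 1 higher, and edgeR called 2 lower when mutant replicate 1 or mutant replicate 2 was left out. None of the markers in either list was at 0 in all libraries.

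Set against these markers within each library, Amhr2 was also lower in mutant testes. A sum of markers cannot tell fewer cells from less RNA per cell. For every 1000 reads of the Sertoli markers other than Amh, the wild-type pair held 21.9 and 18.0 reads of Amhr2 and the mutant pair 14.2 and 13.1. For every 1000 reads of the Leydig markers, the wild-type pair held 148 and 130.3 reads of Amhr2 and the mutant pair 78.1 and 73.2. With the Sertoli markers other than Amh as the library size, a scaling chosen after seeing the data, the log2 fold change of Amhr2 was -0.55 (adjusted p = 0.0221), while the median of all genes moved to 0.23. Amh had 65.6 and 46.4 reads for every 1000 reads of the other Sertoli markers in the wild-type pair and 67.0 and 62.7 in the mutant pair, so the groups overlapped. Under that scaling Amh was at 0.21, close to the shifted median, and was not called (adjusted p = 0.363). With it 4 Sertoli markers were called lower and 3 higher. Cldn11 at -0.98 and the Sertoli markers Aard at -0.76 and Etd at -0.69 lay further down than Amhr2, while Ptgds was at 1.00.

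**Figure D2:**
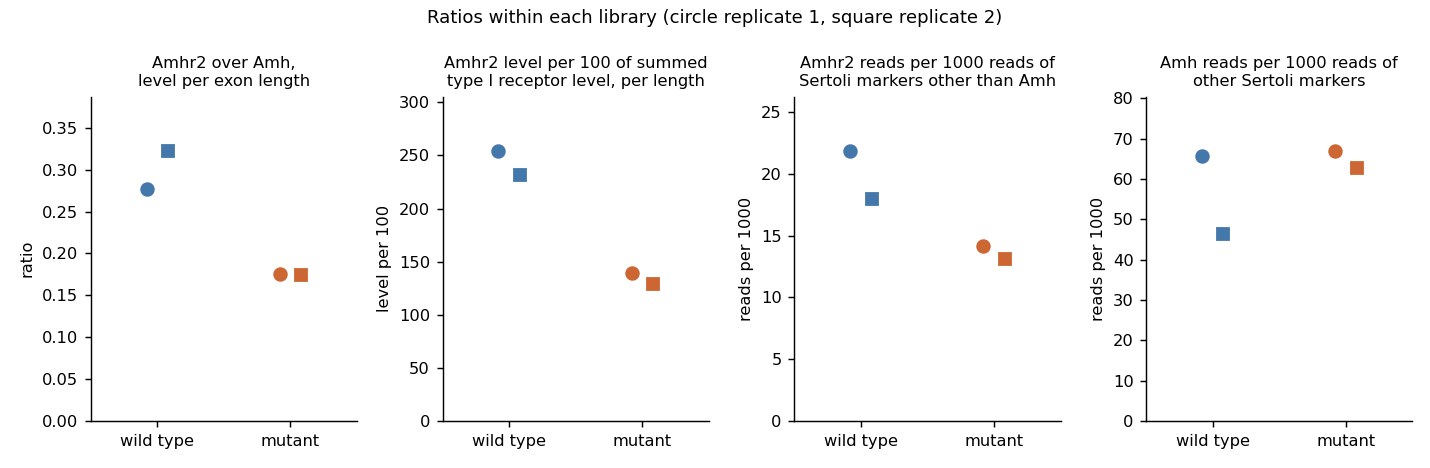
Ratios computed within each library, with wild type in blue, mutant in orange, circles for replicate 1 and squares for replicate 2, and every axis starting at 0. The 3 panels that hold Amhr2 show both mutant libraries under both wild-type libraries, and the panel of Amh reads per 1000 Sertoli marker reads shows overlapping groups.

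Markers of other cell types also differed between the groups, set here against 3.15% of all tested genes called higher and 2.52% called lower. Of 19 germ cell markers tested 14 fell and none rose (median log2 fold change -1.27), and 3 fell without wild-type replicate 1. Their sums were 1144 and 807 CPM in the wild-type pair against 485 and 418 CPM in the mutant pair. Skeletal muscle markers, of which 8 of 12 rose (median 6.93), summed to 100.3 and 76.2 CPM in the wild-type libraries against 2877 and 782 CPM in the mutant libraries. This count was 0 with wild-type replicate 1 left out, with limma voom and with the robust fit, and 1 with wild-type replicate 2 left out. It was 12 with the replicate block and with mutant replicate 1 or mutant replicate 2 left out. Amhr2 stood at 149 and 141 CPM in the mutant libraries, and the part of muscle RNA in its difference was not tested. Of 7 adipocyte markers 5 fell (median -3.98), 1 with wild-type replicate 1 or wild-type replicate 2 left out, with sums of 79.0 and 86.3 CPM against 27.8 and 27.8 CPM. Of 13 macrophage and leukocyte markers 3 rose (median 0.62), with sums of 215 and 237 CPM against 305 and 395 CPM. That count was 1 with wild-type replicate 1, wild-type replicate 2 or mutant replicate 2 left out, with limma voom, with no filter on low counts and with library size as the only scaling. It was 2 with the robust fit and 5 with mutant replicate 1 left out. Of 12 markers of mesothelium, rete and ducts 4 rose (median 0.28), none in the fit that omits wild-type replicate 1 and 2 in the fit that omits wild-type replicate 2, with sums of 662 and 658 CPM against 752 and 954 CPM.

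Of 9 peritubular myoid markers 1 rose, Cald1 (median of the list 0.0010), none when wild-type replicate 1 or wild-type replicate 2 was left out, 2 with the replicate block and 3 with mutant replicate 2 left out. Cald1 itself was not called with mutant replicate 1 left out (adjusted p = 0.0847). The 11 stromal markers (median 0.30) and the 10 endothelial markers (median 0.058) had no call in edgeR's test, which called 5.67% of all tested genes. In that test 7 and 1 of them had an unadjusted p below 0.05, as did 3773 of all 14788 tested genes. DESeq2 called 3 and 1 of them higher and limma voom none. With wild-type replicate 1 left out edgeR called 3 stromal markers higher, and with mutant replicate 2 left out it called 2 stromal markers and 1 endothelial marker higher. Stromal sums were 10317 and 7555 CPM in the wild-type pair against 12588 and 12392 CPM in the mutant pair. Scaled to the Sertoli markers, 7 stromal, 10 macrophage and leukocyte and 12 skeletal muscle markers were called higher. The part of these other cells in the Amhr2 difference was not tested.

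Acvr1 and Bmpr1a encode type I receptors that are found in most tissues. Acvr1 (chromosome 2, 58241055 to 58419568, minus strand) was read at 30.8 and 25.8 CPM in the wild-type pair and at 36.2 and 34.9 CPM in the mutant pair. Both mutant libraries were higher than both wild-type libraries, a separation in this direction shared by 28.3% of tested genes. The log2 fold change was 0.32 ± 0.13 (SE; 95% interval 0.021 to 0.63), and Acvr1 was not called (adjusted p = 0.173 in edgeR's test). Bmpr1a (chromosome 14, 35223920 to 35316527, minus strand) had 267 and 284 CPM in the wild-type pair and 280.3 and 285 CPM in the mutant pair, so the groups overlapped. Its log2 fold change of 0.038 ± 0.08 had an interval from -0.15 to 0.23, the narrowest of the 8 genes. A change of Bmpr1a by more than 1.17-fold upward or 1.11-fold downward lies outside that interval.

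Bmpr1b (chromosome 3, 141500100 to 141832389, minus strand), a type I receptor of more restricted expression, was the least abundant receptor gene. It had 198 and 108 counts in the wild-type libraries and 107 and 248 counts in the mutant libraries. In CPM the wild-type pair was at 14.9 and 10.6 and the mutant pair at 9.74 and 15.8, so that the mutant libraries held both the lowest and the highest value. The log2 fold change was 0.019 ± 0.27 with an interval from -0.60 to 0.63. Its interval reaches a rise of 1.55-fold and a fall of 1.51-fold, so changes up to these sizes lie within it. The ends of the interval are not a limit of detection, and a larger change need not have been called. Leaving out mutant replicate 2 gave -0.40, again without a call (adjusted p = 0.457).

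The receptor-regulated Smads carry the signal from the type I receptors into the nucleus. Smad5 (chromosome 13, 56804371 to 56843738, plus strand) was read at 162 and 136 CPM in the wild-type pair and at 152 and 162 CPM in the mutant pair. The groups overlapped, and the log2 fold change was 0.076 ± 0.10 with an interval from -0.16 to 0.31. Smad1 (chromosome 8, 81862294 to 81923417, minus strand) had 39.4 and 39.1 CPM in the wild-type pair and 45.3 and 42.8 CPM in the mutant pair. Both mutant libraries were higher for Smad1, as for 28.3% of tested genes. Its log2 fold change of 0.16 ± 0.11 had an interval from -0.079 to 0.41, which includes 0. Smad9 (chromosome 3, 54559504 to 54605179, plus strand) had 55 and 33 counts in the wild-type libraries and 51 and 56 counts in the mutant libraries, or 4.13 and 3.23 CPM against 4.64 and 3.57 CPM, and the groups overlapped. With so few reads its log2 fold change of 0.11 ± 0.30 had the widest interval of the 8, from -0.57 to 0.79. The adjusted p-values of edgeR's test were 0.685 for Smad5, 0.367 for Smad1 and 0.847 for Smad9.

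**Figure D3:**
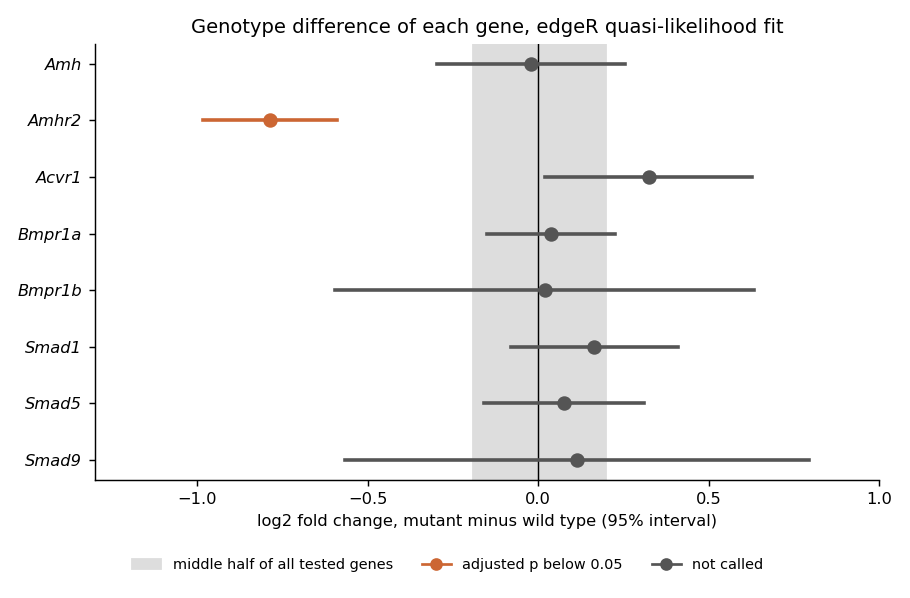
Log2 fold change (mutant minus wild type) of each gene with its 95% interval from the edgeR fit, in orange where the adjusted p was below 0.05; the grey band spans the lower to the upper quartile of all tested genes, from -0.19 to 0.20. Amhr2 at -0.79 lies outside the band with its whole interval, Acvr1 at 0.32 has an interval that reaches into it, and the other 6 estimates lie inside it.

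Levels of different genes were compared as CPM per kilobase of exon (RPKM), with exon lengths from the GENCODE M1 annotation of mm9. In wild type Amh stood at 419 ± 67.3 RPKM, Amhr2 at 125 ± 6.76, Bmpr1a at 43.3 ± 1.89 and Smad5 at 20.1 ± 2.45 (SD, n = 2). Below these came Smad1 at 6.75 ± 0.0386, Acvr1 at 5.86 ± 0.734, Bmpr1b at 2.13 ± 0.508 and Smad9 at 0.686 ± 0.118 RPKM. The order of the group means was the same in mutant testes, where Amh was at 413 ± 13.9 and Amhr2 at 72.3 ± 2.89 RPKM. Smad1 and Acvr1 were the only neighbours in this order whose ranges overlapped within a group: in mutant testes Smad1 was at 7.79 and 7.37 RPKM and Acvr1 at 7.50 and 7.23 RPKM, although Smad1 was the higher of them in each library. Over the 21627 genes with a length, the mean level of Amh exceeded 99.7% of genes, that of Amhr2 97.4%, that of Bmpr1a 92.2% and that of Smad9 38.2%.

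**Figure D4:**
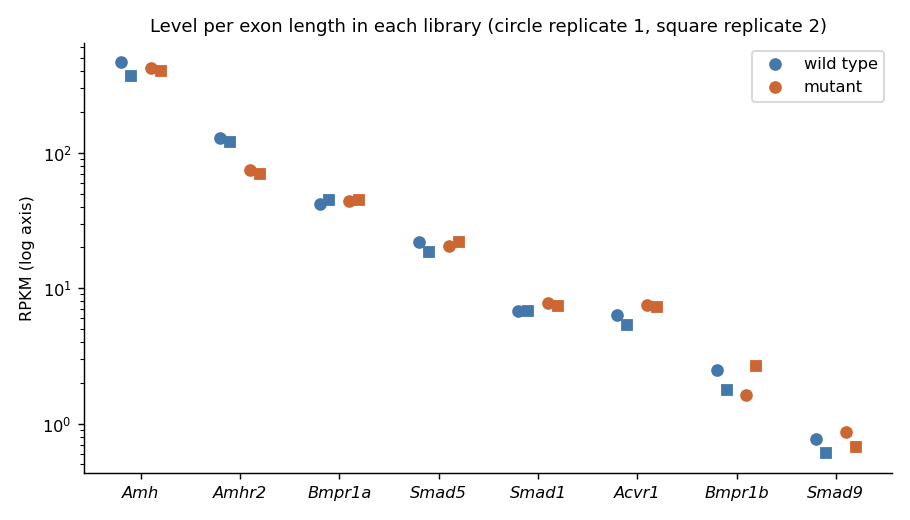
Level per exon length (RPKM, log axis) of the 8 genes in each library, with wild type in blue, mutant in orange, circles for replicate 1 and squares for replicate 2, and genes ordered by the wild-type mean. Levels run from 419 RPKM for Amh to 0.686 RPKM for Smad9 in wild type, and Smad1 and Acvr1 overlap.

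Bmpr1a and Smad5 gave the largest shares of the type I receptor and Smad levels in every library. Bmpr1a made up 82.6% and 86.3% of the summed type I receptor level per length in the wild-type pair and 82.9% and 81.9% in the mutant pair. The share of Acvr1 was higher in both mutant libraries, at 12.5% and 10.3% in the wild-type pair and 14.1% and 13.2% in the mutant pair. Smad5 made up 74.3% and 71.5% of the summed Smad1, Smad5 and Smad9 level in the wild-type pair and 70.3% and 73.1% in the mutant pair. The summed type I receptor level was 50.9 and 51.8 RPKM in the wild-type pair and 53.3 and 54.7 RPKM in the mutant pair. For every 100 RPKM of type I receptors, Amhr2 was thus at 255 and 232 RPKM in the wild-type pair and at 139.6 and 129 RPKM in the mutant pair. The ratio of Amhr2 to Amh per length was 0.277 and 0.323 in the wild-type pair and 0.176 and 0.174 in the mutant pair. Amh per length was 15.7 and 19.5 times Sox9, another Sertoli gene, in the wild-type pair and 23.7 and 21.6 times in the mutant pair. The shares of Bmpr1a and Smad5 overlapped between the groups, as did Amh over the summed type I receptors, at 9.18 and 7.17 in the wild-type pair and 7.94 and 7.37 in the mutant pair. The Acvr1 share and the summed type I receptor level did not overlap. Neither did the ratios of Amhr2 to the type I receptors and to Amh, nor that of Amh to Sox9. In CPM, 57.3% of all tested genes separated the groups in this way. Sox9 is only 1 of the 28 other Sertoli markers, and Amh set against their sum did overlap. With 2 libraries against 2, an exact two-sided permutation test cannot give a p below 0.333.

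Of 14 genes for factors that act on Amh, 2 rose, 2 fell and 10 were not called, with a median log2 fold change of 0.091. The share called over all tested genes was 3.15% higher and 2.52% lower. Dmrt1, which maintains male fate in Sertoli cells, fell from 308 and 264 to 155 and 152 CPM (log2 fold change -0.90 ± 0.10 SE, adjusted p = 0.00577 in edgeR's test). With a library left out its log2 fold change lay between -1.01 and -0.78. Which cells of the testis account for the fall of Dmrt1 was not tested. Gata1, a zinc finger factor of Sertoli cells, fell from 10.5 and 6.37 to 2.82 and 3.57 CPM (-1.40 ± 0.32, adjusted p = 0.0445), and it is also counted among the Sertoli markers above. Gata1 was not called with limma voom (adjusted p = 0.0615), with the replicate number as a block (adjusted p = 0.0569) or with no filter on low counts (adjusted p = 0.0633). The LIM homeobox gene Lhx9 rose from 48.2 and 46.0 to 82.0 and 68.9 CPM (0.68 ± 0.11), and Zfpm2, a cofactor of GATA4, rose from 27.8 and 30.8 to 40.1 and 46.5 CPM (0.57 ± 0.13). The factors best known for switching on Amh were not called in edgeR's fit of all 4 libraries. Sox9 was at -0.42 ± 0.18, Nr5a1 at 0.086 ± 0.09, Gata4 at 0.17 ± 0.11, Wt1 at 0.048 ± 0.08 and Sox8 at 0.097 ± 0.08 on the log2 scale. These 5 and the other genes of the pathway that were not called were picked for their known roles and lie outside the rule for named genes. Gata1, Lhx9 and Zfpm2 were not called when wild-type replicate 1 was left out (adjusted p = 0.198, 0.105 and 0.164) or wild-type replicate 2 (adjusted p = 0.0651, 0.0932 and 0.105), nor was Zfpm2 in the fit that omits mutant replicate 2 (adjusted p = 0.129) or with no filter on low counts (adjusted p = 0.06). The number of these 14 genes called lower was 3 with DESeq2 and with wild-type replicate 2, mutant replicate 1 or mutant replicate 2 left out.

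Downstream of the receptors, of 13 genes for SMAD4, inhibitory Smads and other Smad inhibitors 2 rose and none fell (median 0.082). These were Ski, a corepressor bound by Smads, at 0.43 ± 0.10, and Tob1, an antiproliferative protein that binds Smads, at 0.39 ± 0.09 on the log2 scale (adjusted p = 0.046 and 0.0444 in edgeR's test). The common partner Smad4 was at 0.082 ± 0.08, and the inhibitory Smad6 and Smad7 were at 0.23 ± 0.18 and 0.16 ± 0.11. Of 12 other receptors and Smads of the family 1 rose and none fell (median 0.12). Over all tested genes 3.15% were called higher and 2.52% lower. Tgfbr2, the type II receptor for transforming growth factor beta, rose from 73.8 and 82.1 to 126 and 116 CPM (0.63 ± 0.10, adjusted p = 0.0167). Bmpr2, the type II receptor for bone morphogenetic proteins, was at 0.40 ± 0.17 and not called (adjusted p = 0.182). Ski, Tob1 and Tgfbr2 were not called when wild-type replicate 1 was left out (adjusted p = 0.105, 0.129 and 0.0898). The same held for Ski and Tob1 when wild-type replicate 2 (adjusted p = 0.145 and 0.122) or mutant replicate 1 (adjusted p = 0.169 and 0.151) was left out, and for Tob1 when mutant replicate 2 was (adjusted p = 0.0866). Ski and Tob1 were also not called with limma voom (adjusted p = 0.0538 and 0.0545) or with no filter on low counts (adjusted p = 0.0631 and 0.0671), and Tob1 was not called with the replicate number as a block (adjusted p = 0.0577). With mutant replicate 1 left out, 2 of the 12 other receptors and Smads were called higher.

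Genes known to respond at once to SMAD1, SMAD5 and SMAD9 gave 1 rise and no fall among 14 tested, with a median of 0.050. Among all tested genes 3.15% were called higher and 2.52% lower. Smad6, Smad7 and Bambi are counted both here and among the Smad inhibitors above. Id1, Id2 and Id3, inhibitors of DNA binding that report such signals in many cells, were at -0.013 ± 0.12, -0.039 ± 0.11 and -0.039 ± 0.08 on the log2 scale. Their intervals ran from -0.29 to 0.26 for Id1, from -0.28 to 0.20 for Id2 and from -0.22 to 0.14 for Id3. Whether signalling through AMHR2 changed was not tested. Cdkn1a, a cell cycle inhibitor, rose from 16.4 and 15.7 CPM to 42.0 and 27.3 CPM (1.09 ± 0.21, adjusted p = 0.0296). Its level was higher in mutant replicate 1, the library with more muscle RNA, its log2 fold change was 0.76 without that library, and it was not called when wild-type replicate 1 or 2 was left out (adjusted p = 0.136 and 0.124) or with limma voom. The part of muscle RNA in this rise was not tested. Of 8 tested genes that respond to the hormone in the Müllerian duct or in Leydig cells edgeR, DESeq2 and limma voom called none (median 0.20). In edgeR's test 0 of them had an unadjusted p below 0.05, against 3773 of all 14788 tested genes. The steroid enzyme gene Cyp17a1, which the hormone is known to repress, was at 0.088 ± 0.15, Lef1 at 0.63 ± 0.30 and Mmp2 at 0.26 ± 0.16. Cyp17a1, Lhcgr, Hsd3b1 and Star are also counted among the Leydig markers above.

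The hormone is made as a precursor that proprotein convertases cleave. Of 6 proteases tested, which include the plasminogen activator genes Plat and Plau beside convertases, 1 rose and none fell (median 0.19). Of all tested genes 3.15% were called higher and 2.52% lower. Pcsk5, a convertase able to cleave the hormone, rose from 48.1 and 47.0 to 69.6 and 69.5 CPM (0.55 ± 0.09, adjusted p = 0.022 in edgeR's test). It was not called when wild-type replicate 1 or 2 was left out (adjusted p = 0.0927 and 0.0844), while the log2 fold change stayed between 0.53 and 0.56 in those fits. Furin, the most widely expressed convertase, was at -0.0051 ± 0.12. Of 6 genes that lie near Amh on chromosome 10 edgeR, DESeq2 and limma voom called none (median -0.025). In edgeR's test 2 of them had an unadjusted p below 0.05, as did 3773 of all 14788 tested genes. Sf3a2, a splicing factor gene that ends 323 bases before Amh begins, was at 0.12 ± 0.09. Plekhj1 was at -0.40 ± 0.10 (adjusted p = 0.0544, and 0.0372 with mutant replicate 2 left out, where it was the 1 neighbour called) and Ap3d1 at 0.23 ± 0.08.

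**Figure D5:**
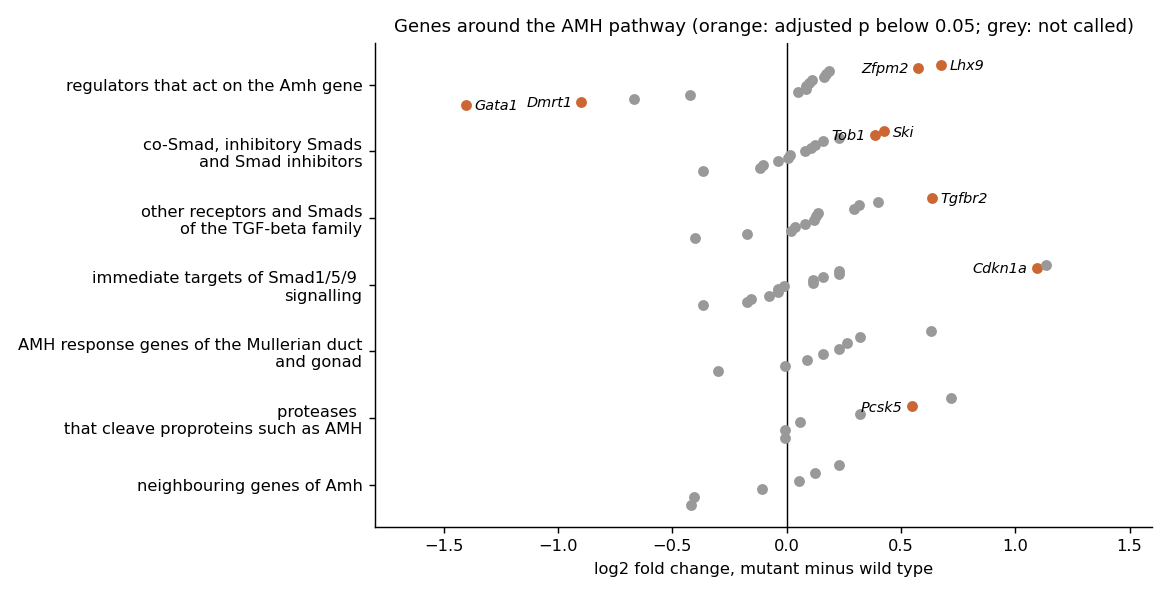
Log2 fold change (mutant minus wild type) of each tested gene in 7 lists around the pathway, one point per gene, with called genes in orange and named. The called genes run from Gata1 at -1.40 to Cdkn1a at 1.09, and the lists of hormone response genes and of neighbours of Amh hold no called gene.

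The genes whose profile over the 4 libraries lay nearest to those of Amh and Amhr2 were sought among 11292 other genes with a mean log2 CPM of at least 3, by Euclidean distance of log2 CPM centred on each gene's own mean. For Amh these were Madd, Zswim1, Fbxo46, Pot1a and Fam116a, at distances from 0.0164 to 0.0327, and none of the 5 was called. For Amhr2 they were Cadm1, Dusp9, Shq1, Elavl2 and 2410022L05Rik, at distances from 0.0529 to 0.108. Cadm1, a cell adhesion molecule, had 105 and 102 CPM in the wild-type pair and 60.9 and 58.0 CPM in the mutant pair, a log2 fold change of -0.81 ± 0.09 (SE). Elavl2 is also counted among the germ cell markers above. All 5 genes near Amhr2 were called lower (log2 fold changes from -0.81 to -0.71). Both sets were picked for their likeness in these same libraries, so the calls near Amhr2 and their absence near Amh largely follow from the choice. Over 4 libraries such likeness is a description only.

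The targeted gene, Thra (chromosome 11, 98601952 to 98630320, plus strand), had 398 and 257 CPM in the wild-type libraries and 237 and 194 CPM in the mutant libraries (log2 fold change -0.60 ± 0.19, adjusted p = 0.0964 in edgeR's test). Normal and mutant transcripts are counted together, so this does not check the genotype labels. Gene counts per library ranged from 10230512 to 15636832, and the 8 genes made up between 0.135% and 0.156% of them. Mutant replicate 1 had the lowest share of mapped reads in the authors' table, 87.9% against 92.4% to 93.1% in the other libraries, and the largest share of reads outside genes, 17.3% against 13.8% to 15.3%.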

How the data were processed

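The authors deposited 1 table of 22609 genes. Its gene values are raw whole counts whose sums equal the totals in the table. They are handled under the unit of expected or estimated counts, since percentages stand in 5 of the 16 deposited lines that follow the genes, and rounding changed no gene value. The submitters' processing notes name mm9, HTSeq, DESeq2, TopHat 1.4.0 and CASAVA 1.8.1 without saying what each did. The sources used here do not give the annotation, counting mode or strand setting. Libraries were single-end with 100-base reads, per the labels' protocols. Lines that name no gene were left out: reads outside genes were 13.8% to 17.3% and ambiguous reads 0.602% to 0.726% of the counted reads.

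All genes were tested in 1 fit with edgeR 4.0.16 (quasi-likelihood test, two-sided, legacy and robust options off) under R 4.3.3. Scaling was by trimmed means (TMM), genotype was the only term, and the default filter (minimum count 10, minimum total 15) left 14788 genes, over which p-values were adjusted by Benjamini-Hochberg with a threshold of 0.05. The script was first tested on simulated counts. CPM and RPKM use TMM-adjusted library sizes, and RPKM the summed exon length of the gene in GENCODE M1, which matched 21627 symbols. Standard errors were computed as the absolute log2 fold change over the root of F, and intervals are at 95%.

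The members and lists were chosen with earlier results of these data known. Named genes are the 8 members, Thra, up to 4 called genes per list or the 2 with the smallest p, and the 5 genes nearest in profile to Amh and to Amhr2; exceptions are stated, and not every gene taken by the rule is described. The 7 lists around the pathway and 10 cell type lists are described by counts and medians. Other settings were DESeq2 1.42.0, limma voom (limma 3.58.1), robust and legacy fits, 3 other normalisations, 2 other filters, the replicate number as a block, each library left out, and, chosen after seeing the data, scaling to Sertoli cell markers. Replicates of a group differed by more than sampling noise.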

Additional observations from a re-analysis of the deposited data

How the results depend on the processing

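Amhr2 was called lower, and none of the other 7 genes was called, in each of the 14 planned settings and under the scaling to Sertoli cell markers. Over all genes, 466 higher and 373 lower calls became 309 higher with limma voom, 282 and 218 without a filter on low counts, and 1905 and 171 under the Sertoli scaling, which was chosen after seeing the data and moved the median log2 fold change of all genes to 0.23. Leaving out a library gave 34 to 818 higher and 40 to 477 lower calls: 34 and 40 when wild-type replicate 1 was left out, 60 and 88 when wild-type replicate 2 was, and 818 higher when mutant replicate 2 was. Amh ranged from -0.18 to 0.15 (log2) when a library was left out, at 0.15 without wild-type replicate 1 and 0.012 without mutant replicate 2, and was at 0.21 under the Sertoli scaling. Leaving out a library also changed the sign of Bmpr1a (range -0.0092 to 0.080, negative without wild-type replicate 1), Bmpr1b (-0.40 to 0.30, with -0.19 without wild-type replicate 2 and -0.40 without mutant replicate 2), Smad5 (-0.045 to 0.20, negative without wild-type replicate 2) and Smad9 (-0.060 to 0.32, with -0.035 without wild-type replicate 2 and -0.060 without mutant replicate 1). The fold changes behind these reversals were all uncalled in both fits, and the cause was not tested. Replicate numbers do not pair the samples by any label, and the deviations of same-numbered libraries correlated at -0.038 across genes. With the replicate number as a block, 512 genes were higher and 341 lower, Amhr2 was at -0.78 (adjusted p = 0.00425), Amh at -0.011 and Bmpr1b at -0.0026. Among counts of called genes in the lists, 439 of those recomputed stayed within 1.5 times the main count and 71 did not. The 439 include counts that were 0 in both fits, and the tally includes the Sertoli scaling, so it says little about stability. Read number limits Smad9 and Bmpr1b most, with 33 to 56 and 107 to 248 counts per library.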
